A study of Mus musculus with 6 samples.

Results

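The antimicrobial genes of the Paneth cell followed here in the jejunum of irradiated mice were the α-defensins Defa3, Defa20 and Defa26, the defensin-processing protease Mmp7, the angiogenins Ang4 and Ang5, the lysozyme Lyz1 and the lectin Itln1, 8 genes in all. They were chosen because they differed between mice given NeuroD-EGFP and mice given EGFP in an earlier reading of these arrays, so their differences between the groups are given as a description, without a test. The array carries 45281 probes. The platform annotation named 14 of them for these 8 genes, with 3 probes each for Defa3, Defa20 and Lyz1 and 1 probe for each of the other 5 genes. All 14 were detected above the negative controls on all 6 arrays.

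The study asked what NeuroD-EGFP, a fusion of the basic helix-loop-helix factor NeuroD with enhanced green fluorescent protein, changes in the intestine after radiation. All 6 mice were male C57BL/6J animals, 8 weeks old, exposed to 9 Gy of total body irradiation (TBI) and then injected intraperitoneally with 100 µl of 0.1 mM protein. EGFP alone was given to 3 control mice and NeuroD-EGFP to the other 3, and jejunum was taken at 12 h, 1 Illumina Mouse WG-6 array per mouse. No array of an unirradiated or vehicle-treated mouse was analysed here, and each array reads whole jejunal tissue, in which fewer Paneth cells and less RNA per Paneth cell cannot be told apart.

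Paneth cells sit at the base of small intestinal crypts beside the stem cells and release antimicrobial proteins from large granules into the crypt lumen. They occur along the whole small intestine and are most numerous in the ileum. Mouse α-defensins, the cryptdins, are made as inactive precursors and cut to their active form by matrix metalloproteinase 7, the product of Mmp7. Lyz1 encodes the lysozyme of Paneth granules, whereas Lyz2 encodes that of macrophages. Ang4 is a secreted ribonuclease with antibacterial activity, Ang5 is a related member of the angiogenin family, and Itln1 encodes intelectin, a lectin that binds microbial sugars. Wnt signaling through TCF factors is known to drive Paneth cell maturation, and NeuroD binds the E-box as a dimer with E proteins.

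RefSeq promoter windows, reaching from 250 bases before to 50 bases after the start of transcription (build GRCm38.p6), were matched for 6 of the 8 genes. They are shown because these genes deviated together over the 6 mice, a pattern that rested on 1 mouse. Capitals mark CATCTG, the E-box form preferred by NeuroD, which reads CAGATG on the other strand, and CTTTGAT, a TCF motif, which reads ATCAAAG on the other strand. Both strands were searched. Defa20 (chr8:21509008-21509307, plus strand) held CAGATG at position -225 from the start and ATCAAAG at -112 and -72.
Defa20: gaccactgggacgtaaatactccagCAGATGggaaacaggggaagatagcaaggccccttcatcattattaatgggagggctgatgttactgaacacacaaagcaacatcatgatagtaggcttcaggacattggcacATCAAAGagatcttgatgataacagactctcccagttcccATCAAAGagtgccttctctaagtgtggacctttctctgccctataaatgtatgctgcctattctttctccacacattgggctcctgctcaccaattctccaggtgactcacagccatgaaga
The first of 2 Mmp7 windows (chr9:7691840-7692139, plus strand) held ATCAAAG at position 5.
Mmp7: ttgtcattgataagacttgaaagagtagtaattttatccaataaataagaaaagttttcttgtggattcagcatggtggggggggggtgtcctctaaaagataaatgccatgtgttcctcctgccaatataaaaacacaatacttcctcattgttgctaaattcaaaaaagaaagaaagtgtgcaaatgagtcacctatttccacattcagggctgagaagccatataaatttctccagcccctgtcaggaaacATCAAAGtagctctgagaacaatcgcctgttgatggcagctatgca
Ang4 (chr14:51773541-51773840, minus strand) held CAGATG at position -235, and the window of its neighbor in the family, Ang5 (chr14:43956819-43957118, plus strand), held neither motif although 89.8% of 283 aligned bases were identical.
Ang4: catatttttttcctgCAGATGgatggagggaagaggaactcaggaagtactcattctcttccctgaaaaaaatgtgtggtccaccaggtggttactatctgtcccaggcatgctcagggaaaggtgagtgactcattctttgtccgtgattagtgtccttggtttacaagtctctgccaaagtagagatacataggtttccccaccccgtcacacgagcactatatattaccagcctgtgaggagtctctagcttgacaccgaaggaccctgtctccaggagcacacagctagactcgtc
Ang5: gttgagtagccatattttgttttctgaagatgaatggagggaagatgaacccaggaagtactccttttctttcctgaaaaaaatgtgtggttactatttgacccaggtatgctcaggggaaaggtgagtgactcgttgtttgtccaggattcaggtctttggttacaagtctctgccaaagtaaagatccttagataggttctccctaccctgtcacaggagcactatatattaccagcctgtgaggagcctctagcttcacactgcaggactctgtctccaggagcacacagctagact
Lyz1 (chr10:117292819-117293118, minus strand) held neither motif.
Lyz1: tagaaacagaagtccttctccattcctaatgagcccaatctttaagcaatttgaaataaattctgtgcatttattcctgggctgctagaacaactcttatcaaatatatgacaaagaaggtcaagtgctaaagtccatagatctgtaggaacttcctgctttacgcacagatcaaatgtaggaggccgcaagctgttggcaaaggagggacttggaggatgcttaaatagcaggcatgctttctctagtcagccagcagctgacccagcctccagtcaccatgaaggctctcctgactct
The window of Itln1, not printed here, also held neither motif. Among 32851 windows of 300 bases in the same table, 17.2% held CATCTG and 3.73% held CTTTGAT on either strand. The general E-box CANNTG, of which CATCTG is one form, was present in 72.3% of all windows and in the windows of Defa20, Mmp7, Ang4, Lyz1 and Itln1, but not in that of Ang5. Matches are a description of letters and not of binding.

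The α-defensins form a family of close copies. RefSeq places 28 Defa genes on chromosome 8, and the Defa20 window was identical to that of Defa2 in all 300 bases and shared 97.7% with Defa21 and Defa22. Of 16 Defa windows, 13 held CTTTGAT and 11 held CATCTG, which are counts over near-copies. Probe sequences were not used here, so a probe named for 1 defensin may also read its neighbors, and the 3 defensin names below are those of the annotation.

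Before the values, 1 library must be set apart. The mouse labelled EGFP 3 went against its tissue label. Fabp6, the ileal bile acid binding protein, had a deposited intensity of 18911.5 in EGFP mouse 3, was not detected in EGFP mice 1 and 2 or NeuroD-EGFP mice 2 and 3, and stood at 36.5 in NeuroD-EGFP mouse 1. Lct, the lactase of the jejunal brush border, was not detected in EGFP mouse 3 and ranged from 5522 to 8520 in the other 5 mice. Of 6 ileal genes listed, 3 passed the detection filter, Nr1h4, Slc51a and Slc51b, and their summed intensity after normalization was 26720 in EGFP mouse 3 against 6993 to 8993 in the other 5. Slc10a2, the ileal bile acid transporter, was not detected on any array. Differences that this mouse moved by over 1.5 times, or whose sign it turned, are therefore given without it too, and the part of these ileal signals in the Paneth cell values was not tested. Across the arrays, 18271 to 20408 probes were detected at a detection p-value under 0.05, and the 75th percentile of intensity ranged from 80.3 to 122.

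The α-defensin probes fell into those that differed widely between mice and those that hardly moved. The values that follow are log2 intensities after background correction and quantile normalization (neqc in limma), listed for mice 1, 2 and 3 of each group, and differences are NeuroD-EGFP minus EGFP with the standard error from limma. Defa26 read 13.17, 13.21 and 14.16 with EGFP and 14.57, 14.64 and 14.39 with NeuroD-EGFP. All 3 NeuroD-EGFP mice were above all 3 EGFP mice, and the difference was 1.02 (standard error 0.28), or 1.34 without EGFP mouse 3. In NeuroD-EGFP mice 1 and 2 its deposited intensities, 24864 and 25432, were close to the brightest spots of those arrays, 28802 and 28526, and whether the difference was compressed there was not tested. Defa20 was read by 3 probes. Its probe ILMN_2675560 gave 9.99, 10.49 and 14.23 with EGFP and 13.31, 14.04 and 14.26 with NeuroD-EGFP, or deposited intensities of 1206, 1534 and 18611 against 10192, 15944 and 16806. EGFP mice 1 and 2 were low. After normalization EGFP mouse 3 lay within the range of the NeuroD-EGFP mice, 15.9-fold above the mean of its own group mates. Its deposited intensity was above that of every NeuroD-EGFP mouse. The difference was 2.30 (standard error 1.03) over all mice and 3.63 without EGFP mouse 3, a 12.4-fold higher level. The other Defa20 probes, ILMN_1230099 and ILMN_2739019, differed by 0.10 (standard error 0.15) and -0.09 (standard error 0.14), or 0.21 and -0.03 without EGFP mouse 3, with intensities between 18978 and 26860 in every mouse. The probes named for 1 gene therefore disagreed.

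Defa3 showed the same split among its probes. Probe ILMN_1221489 read 11.85, 11.84 and 13.17 with EGFP and 13.20, 12.75 and 12.92 with NeuroD-EGFP, a difference of 0.67 (standard error 0.37) that was 1.12 without EGFP mouse 3. EGFP mice 1 and 2 were below every other mouse on it. On probe ILMN_2524832 the values ran only from 14.12 to 14.24 over all 6 mice, and on ILMN_2691897 from 14.31 to 14.47, with differences of 0.05 (standard error 0.13) and 0.02 (standard error 0.13), or 0.02 and 0.06 without EGFP mouse 3.

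Mmp7, which activates the defensins, was read by a single probe of moderate brightness. It gave 8.51, 8.58 and 10.49 with EGFP and 9.87, 9.98 and 9.96 with NeuroD-EGFP. The groups overlapped because EGFP mouse 3 had the highest value of all. The means were 9.19 ± 1.12 (SD, n = 3) and 9.94 ± 0.06 (SD, n = 3), a difference of 0.74 (standard error 0.50). Without EGFP mouse 3 the difference was 1.40, or 2.63-fold.

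Both angiogenins moved alike at very different brightness. Ang4 read 11.40, 11.41 and 13.06 with EGFP and 13.08, 12.97 and 12.89 with NeuroD-EGFP, or deposited intensities of 3230, 2946 and 8279 against 8713, 7337 and 6361. Ang5, a dim probe, read 6.43, 6.41 and 8.13 with EGFP and 7.90, 7.91 and 7.83 with NeuroD-EGFP, or 88.4, 70.5 and 271 against 216, 207 and 177. EGFP mice 1 and 2 were the lowest for both genes and EGFP mouse 3 stood among or above the NeuroD-EGFP mice. The differences were 1.02 (standard error 0.43) for Ang4 and 0.89 (standard error 0.44) for Ang5, or 2.03-fold and 1.85-fold. Without EGFP mouse 3 they were 1.58 and 1.47, or 2.99-fold and 2.76-fold. Whether 1 transcript of this family also reaches the other probe was not tested.

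Lyz1 had 3 probes, and the direction depended on the probe. ILMN_1247933 read 12.94, 12.57 and 14.41 with EGFP and 14.09, 14.01 and 13.72 with NeuroD-EGFP, a difference of 0.64 (standard error 0.45), and 1.18 without EGFP mouse 3. ILMN_2736867 read 13.70, 13.72 and 14.24 against 14.12, 14.10 and 14.01, a difference of 0.19 (standard error 0.18), and 0.36 without EGFP mouse 3. ILMN_2878071, the brightest of the 3, read 14.64, 14.70 and 14.65 against 14.38, 14.63 and 14.45. On that last probe all NeuroD-EGFP mice lay below all EGFP mice, by 0.18 on the log2 scale in the means (difference -0.18, standard error 0.14). Its deposited intensities overlapped, at 24964 to 27937 with EGFP and 19312 to 25426 with NeuroD-EGFP. Lyz2, the macrophage lysozyme, also had 3 probes that disagreed. They differed by -0.38 (standard error 0.72), 0.58 (standard error 0.38) and -0.01 (standard error 0.51), and by 0.17, 1.06 and 0.35 without EGFP mouse 3. Only the second of them, ILMN_2766780, had EGFP mice 1 and 2 below the other 4, at 8.41, 8.47 and 9.88 with EGFP and 9.46, 9.43 and 9.63 with NeuroD-EGFP.

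Itln1, the intelectin gene, read 13.11, 13.10 and 13.89 with EGFP and 13.86, 13.79 and 13.84 with NeuroD-EGFP. EGFP mice 1 and 2 were again the lowest, and EGFP mouse 3 was the highest of all 6. The difference was 0.46 (standard error 0.23) with all mice and 0.72 without EGFP mouse 3.

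**Figure D1:**
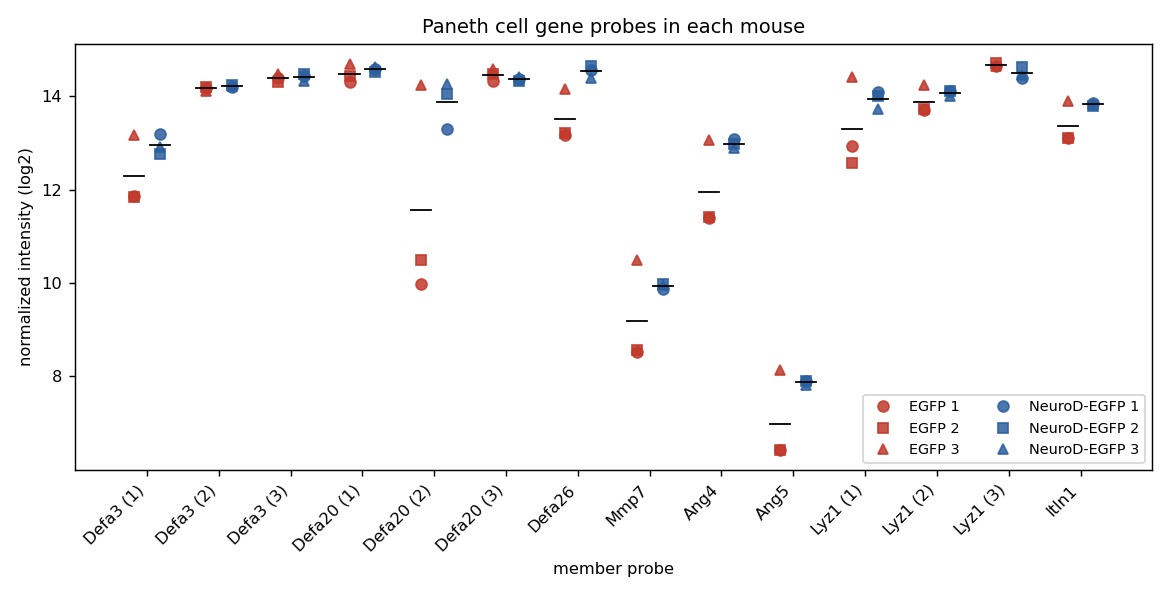
Normalized log2 intensity (vertical axis) of the 14 probes of the 8 Paneth cell genes (horizontal axis) in each mouse, red for EGFP and blue for NeuroD-EGFP, with the symbol giving the mouse and the black bar the group mean. Numbers in brackets count the probes of a gene in the order ILMN_1221489, ILMN_2524832, ILMN_2691897 for Defa3, ILMN_1230099, ILMN_2675560, ILMN_2739019 for Defa20 and ILMN_1247933, ILMN_2736867, ILMN_2878071 for Lyz1. On Ang4, Ang5, Mmp7, Itln1 and Defa20 (2), EGFP mice 1 and 2 lie below the other 4 mice.

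Over the 14 probes, 12 differences were positive. The groups did not overlap for 1 probe that was higher with NeuroD-EGFP, that of Defa26, and for 1 that was lower, Lyz1 ILMN_2878071, and 12 overlapped. Of all 19099 probes tested, 5.6% were higher and 5.51% lower without overlap. No probe on the array passed an adjusted p of 0.05 in limma (0% called, Benjamini-Hochberg over all 19099), while 2.46% were higher and 2.54% lower at an unadjusted p under 0.05. The median difference over the 8 genes was 0.60 with the brightest probe of each gene and 0.82 with the dimmest, against 0.0047 over all 10775 named genes. These were 1.03 and 1.37 without EGFP mouse 3, against 0.0086. Small differences turned with the scaling: in the authors' unscaled log2 values Defa3 ILMN_2524832, Defa3 ILMN_2691897 and Defa20 ILMN_1230099 were below 0, and with arrays scaled to their 75th percentile Defa20 ILMN_2739019 was above 0. Because the genes were picked on this contrast, nothing is read from these counts.

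Within the EGFP group, what most of the 14 probes shared was the place of mouse 3. EGFP mouse 3 was above both of its group mates on 12 of 14, against 37.6% of all probes, and by more than 1 on the log2 scale on 6 of 14, against 4.32%. EGFP mice 1 and 2 differed from each other by at most 0.50, and which of them was higher varied between probes. The spread was larger in the EGFP group on 13 of 14 probes, as on 72.4% of all probes, and the SD of the EGFP group was a median of 4.54 times that of the NeuroD-EGFP group, against 1.69 times over all probes tested.

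**Figure D2:**
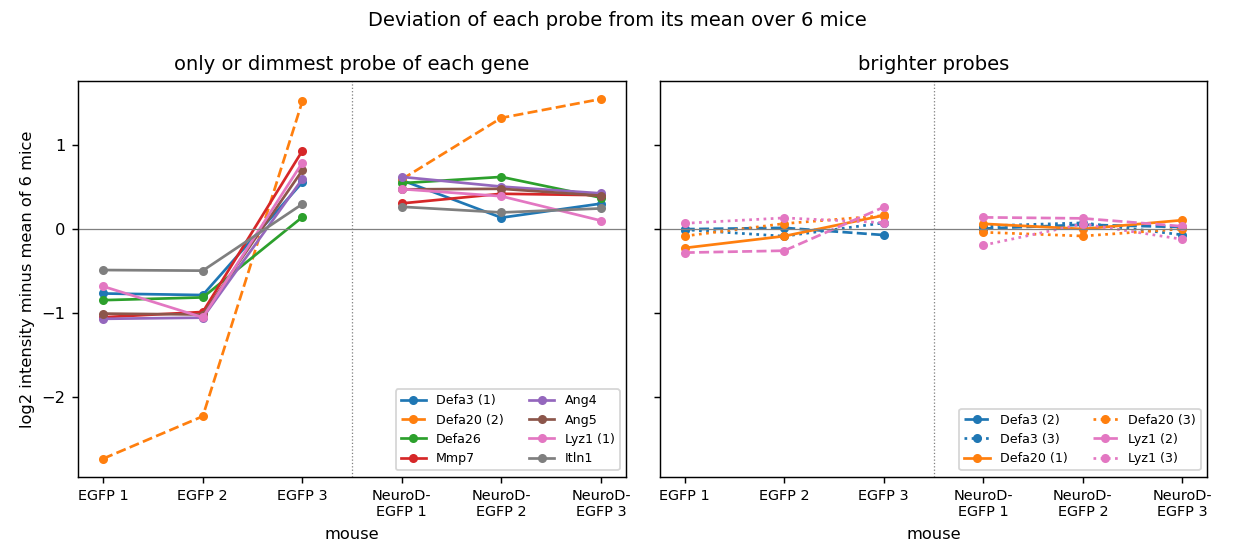
Log2 intensity of each probe minus its mean over the 6 mice (vertical axis) for each mouse (horizontal axis), with the only or dimmest probe of each gene on the left and the brighter probes on the right, the dotted line separating the groups. On the left, EGFP mice 1 and 2 are the lowest, with a median of -0.93 over the 8 genes in mouse 1, EGFP mouse 3 has 0.64, and the NeuroD-EGFP mice lie between 0.38 and 0.51.

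Probe brightness went with how far the mice differed. On 7 of the 14 probes the intensity passed 20000 on some array, where the brightest spot of an array lay between 23189 and 29649. Their values ranged over a median of 0.32 on the log2 scale across the 6 mice, although Defa26 and Lyz1 ILMN_1247933 ranged over 1.47 and 1.84. The other 7 had a median range of 1.69. Over all probes tested the median range was 0.65, and over the 114 probes that passed 20000 it was 0.31. Whether the bright probes were near the top of the scanner's range was not tested.

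**Figure D3:**
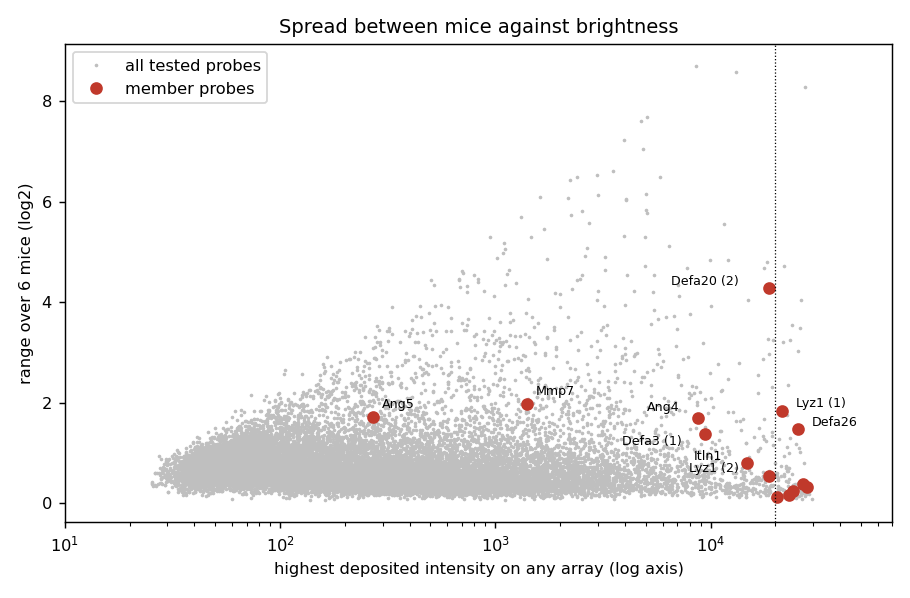
Range of log2 intensity over the 6 mice (vertical axis) against the highest deposited intensity on any array (horizontal log axis) for all 19099 probes tested in gray and the 14 Paneth cell gene probes in red, with a dotted line at 20000. The unlabelled red points at the lower right are Defa3 (2) and (3), Defa20 (1) and (3) and Lyz1 (3), which range over 0.12 to 0.39.

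After the group means were removed, the 8 genes deviated together. The genes had been chosen on the difference between the groups in these same 6 arrays, so this is given as a description. With the brightest probe of each gene, 23 of 28 pairs had a positive Pearson correlation over the 6 mice, with a median r of 0.86. With the dimmest probe all 28 pairs were positive, with a median r of 0.97 and a lowest r of 0.88. All points share the same 6 arrays and 1 normalization. Without EGFP mouse 3 the median r was -0.07 with the brightest probes and -0.09 with the dimmest, so the joint deviation rested on that mouse. The 10 other genes whose deviations were most like those of the 8 genes were Idi1, Cyba, Glce, Gpx2, Slc45a4, Ppp2r5d, Sobp, Cdkn2b, Rapgef5 and Spink4, each with a mean r of 0.82 over the 6 mice. A mean r over 0.6 was reached by 2002 of 10767 genes.

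Other Paneth cell genes were read from lists of known markers. Of 5 other α-defensins with a named probe, 4 passed the detection filter and all 4 had a positive difference, as 50.8% of all genes did. Their median difference was 0.72 with all mice and 1.26 without EGFP mouse 3. Defa39 had deposited intensities of 13115, 12541 and 16533 with EGFP and 21849, 18460 and 16147 with NeuroD-EGFP, which overlapped, and was after normalization the only 1 of the 4 higher without overlap, as 5.44% of all genes were, with a log2 difference of 0.60 (standard error 0.19). Defa21 read 10.96, 11.09 and 14.22 against 12.75, 12.93 and 13.54, a difference of 0.98 (standard error 0.82). Defa23 and the pseudogene Defa-ps1 differed by 0.33 and 0.85. Without EGFP mouse 3, Defa21 differed by 2.05, Defa23 by 0.51 and Defa-ps1 by 1.76. None of the 4 passed an adjusted p of 0.05 in limma with all mice. EGFP mice 1 and 2 were the lowest of the 6 for all 4 genes, as for most of the genes above.

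On a list of other Paneth cell products, most of them secreted, 14 genes were tested. The list also held Lyz2, the macrophage lysozyme, and Dll1 and Nupr1, which are not secreted products. Of these 14 genes, 12 had a positive difference, with a median of 0.39. Clps, encoding colipase, differed by 0.68 (standard error 0.22) and Reg3a, a C-type lectin, by 0.42 (standard error 0.21). For both, the groups did not overlap after normalization but overlapped in the deposited intensities. Pnliprp2, a lipase, differed by 0.95 (standard error 0.41) and Dll1, a Notch ligand that Paneth cells display to stem cells, by 0.38 (standard error 0.26), or by 1.47 and 0.12 without EGFP mouse 3. The 4 other angiogenins and ribonucleases tested, Ang, Rnase1, Rnase4 and Rnase6, had a median of 0.08, and 0.21 without EGFP mouse 3. The 13 regulators and surface proteins tested had a median of -0.02, with 5 positive, but of 0.20, with 9 positive, without EGFP mouse 3. Among them Vdr, the vitamin D receptor, differed by -0.50 (standard error 0.21). Gfi1, a transcriptional repressor that acts within the secretory lineage, differed by -0.47 (standard error 0.22). The secretory factor Bhlha15 differed by 0.43 (standard error 0.28) and the surface protein Cd24a by -0.17 (standard error 0.19). Sox9, required for Paneth cells to form, differed by -0.02 (standard error 0.24). Without EGFP mouse 3, Gfi1 differed by -0.29, Bhlha15 by 0.74, Cd24a by -0.07 and Sox9 by 0.20. In all, 24 of 35 genes on these lists were positive with a median of 0.21 (0.35 without EGFP mouse 3, -0.042 in the authors' unscaled values, where all genes had -0.27), and 0 passed an adjusted p of 0.05 in limma, while 2 were higher and 1 lower at an unadjusted p under 0.05, against 2.2% and 2.56% of all named genes. Leaving out EGFP mouse 3 changed what limma called across the array. Of 18231 probes then tested, 25 were higher with NeuroD-EGFP at an adjusted p under 0.05 (0.137%) and 3 were lower (0.0165%). Of the 25, 5 were probes of the 8 genes, those of Defa20 (ILMN_2675560), Defa26, Mmp7, Ang4 and Ang5. The 8 genes were picked on this contrast, so these 5 calls are not read as a result. Among the 35 genes, limma then called Pnliprp2 at 1.47 (adjusted p = 0.026) and Pla2g2a, a secreted phospholipase, at 1.36 (adjusted p = 0.0447). It also called Defa21 at 2.05 (adjusted p = 0.0494), and none of the other 32. The shares above are of probes, not of genes. Defa21 shared 97.7% of its promoter window with Defa20, and the mouse left out had the highest value for each of the called genes. Their calls are therefore given as a description only.

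Markers of other cell types were read on the same arrays. The 10 goblet cell genes tested, Muc2 and Tff3 among them, had a median difference of 0.09, and 0.33 without EGFP mouse 3. Their summed intensity after normalization ranged from 46638 to 86124 with EGFP, highest in mouse 3, and from 55532 to 69373 with NeuroD-EGFP. The 12 enterocyte genes summed to 93985 in EGFP mouse 3 and to 132661 to 152939 in the other 5 mice, with a median difference of 0.29, and 0.065 without EGFP mouse 3. Medians were 0.12 for 12 enteroendocrine, -0.10 for 6 stem cell and -0.13 for 13 proliferation genes, and without EGFP mouse 3 they were 0.047, 0.047 and -0.14. For the 3 ileal genes the median was -0.43, and 0.10 without it. Macrophage genes, 9 tested, had a median of -0.10, and -0.20 without EGFP mouse 3, and their sums overlapped, at 2832 to 4860 against 3038 to 4118. The macrophage gene of lowest p, Mrc1, differed by -0.65 (standard error 0.23), and 4 of the 9 were positive. The 7 neutrophil genes tested had a median of 0.27 and summed to 680 to 966 with EGFP and to 1422 to 1765 with NeuroD-EGFP. Much of that gap was Lcn2, which epithelium also makes and which differed by 2.10 (standard error 0.34), and the other 6 summed to 580 to 688 against 793 to 855. Ltf, the brightest of these 6, made up most of their sums and differed by 0.46 (standard error 0.14). It read 8.68 to 8.94 with EGFP and 9.19 to 9.36 with NeuroD-EGFP. Of the 7 neutrophil genes 6 were positive with all mice. The only negative 1, the neutrophil receptor gene Cxcr2, differed by -0.29 (standard error 0.24), or -0.53 without EGFP mouse 3. The defining neutrophil genes Camp, Mpo and Ngp did not pass the detection filter, and no mast cell gene of 7 did. Of 15 pancreatic acinar genes with a probe 5 passed, with a median of -0.0018, or 0.010 without EGFP mouse 3, and Cpa1, Cpb1 and Cel did not. Zg16, 1 of the 5, was also on the goblet cell list and read 19534 to 22172 in deposited intensity. Amy2a5 differed by -1.29 (standard error 0.68), or -1.78 without EGFP mouse 3. With all mice 2 of the 5 were positive and 3 negative. None of these genes passed an adjusted p of 0.05 in limma with all mice. When EGFP mouse 3 was left out, limma called Lcn2 at 2.498 (adjusted p = 0.0193), S100a8, a neutrophil calcium-binding protein, at 1.62 (adjusted p = 0.0193) and Alpi, the intestinal alkaline phosphatase of enterocytes, at -1.49 (adjusted p = 0.0193). S100a8 was not detected in EGFP mice 1 and 2, at deposited intensities of 8.45 and 13.7 against 75.6 to 78.9 with NeuroD-EGFP. It then passed the detection filter only through the NeuroD-EGFP mice, so its call is not read as a result. Alpi read 13.32, 13.22 and 10.85 with EGFP and 11.83, 11.72 and 11.81 with NeuroD-EGFP, high in EGFP mice 1 and 2 alone. The part of any of them in the Paneth cell values was not tested.

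Nts, the neurotensin of distal enteroendocrine cells, had 2 probes. On ILMN_2929906 EGFP mice 1 and 2 were the lowest, as for many of the Paneth cell probes. It read 5.11, 6.66 and 9.66 with EGFP and 8.07, 8.78 and 8.92 with NeuroD-EGFP, a difference of 1.44 (standard error 1.02), and 2.69 without EGFP mouse 3. In EGFP mouse 1 it was at background. The dimmer ILMN_1221615 did not follow that order, with 5.58, 5.54 and 6.97 against 5.51, 6.22 and 6.61, a difference of 0.08 (standard error 0.44), and 0.54 without EGFP mouse 3. Gip, a hormone of proximal enteroendocrine cells, read 8.56, 8.67 and 5.45 against 8.62, 8.36 and 8.41, low in EGFP mouse 3 alone. The enteroendocrine genes Pyy and Gcg had EGFP mice 1 and 2 lowest, as Nts ILMN_2929906 did. Pyy read 6.15, 5.94 and 10.78 against 6.90, 7.74 and 8.36. Gcg read 8.75, 9.15 and 11.27 against 9.85, 9.92 and 9.91. Their differences were 0.05 (standard error 1.23) and 0.17 (standard error 0.60), and 1.63 and 0.94 without EGFP mouse 3. Of the 12 enteroendocrine genes, 6 were positive without EGFP mouse 3. Nr1h4, the bile acid receptor, read 9.93, 9.90 and 12.26 against 9.90, 9.75 and 10.11, so it was high in EGFP mouse 3 and not in the NeuroD-EGFP mice. Slc51b, a bile acid transporter subunit, read 10.97, 10.73 and 13.05 against 11.04, 11.59 and 11.47. The NeuroD-EGFP mice, whose Paneth cell probes stood near those of EGFP mouse 3, did not have its high Fabp6 or its undetected Lct, and the part of position along the intestine in their values was not tested.

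**Figure D4:**
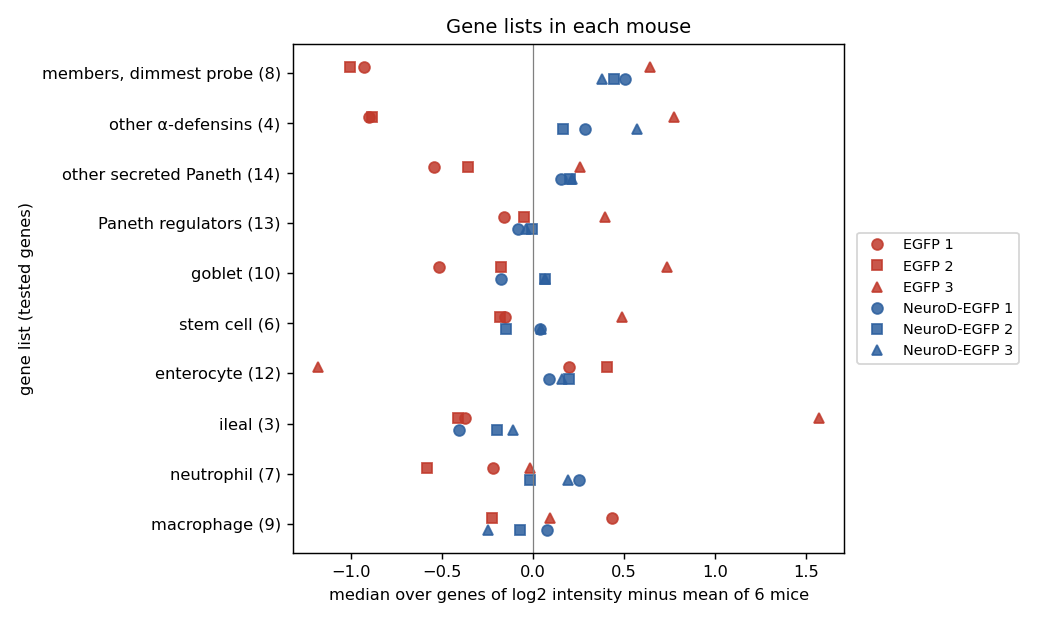
Median over the tested genes of each list of log2 intensity minus the mean of 6 mice (horizontal axis), for each gene list (vertical axis, number of genes in brackets), red for EGFP and blue for NeuroD-EGFP, with the symbol giving the mouse. EGFP mouse 3 stands at 1.57 for the ileal genes and at -1.18 for the enterocyte genes. EGFP mice 1 and 2 are the lowest for the 3 upper lists. The third, labelled other secreted Paneth, also holds Lyz2, Dll1 and Nupr1.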

How the data were processed

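Jejunum RNA of 6 mice was grouped by the submitters' labels, and dose, age and volume were taken from the study's methods. The authors deposited background-subtracted intensities, 24.4% to 26.1% of them at or below 0, each with a deposited detection p-value, and a table of deposited log2 values equal to log2 of those intensities, with 4 in place of signals at or below 0 and no scaling. How the scanner subtracted background is not given in the sources used here. These intensities were put on the log2 scale with limma 3.58.1 (R 4.3.3), whose neqc function infers the background from the detection p-values, adds an offset of 16 and normalizes by quantiles. A probe entered the tests if its detection p-value was below 0.05 on 3 or more of the 6 arrays, as for 19099 of 45281, and lmFit and eBayes were run with adjustment over all of these. Each gene was represented by its tested probe of highest mean. The platform annotation, brought up to date with RefSeq, gave 1 symbol to 34885 probes and several to 18, and did not list 10378. The array was annotated to an older build than GRCm38.p6, so only the promoter windows carry coordinates.

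The 8 genes, the gene lists and the tests were chosen with earlier results of these data known. The text names every probe of the 8 genes, every other tested α-defensin, the 10 genes most alike in deviation, and some of the genes of lowest p from the lists described. Nr1h4, Slc51b, Fabp6, Slc10a2, Lct, Nts, Gip, Pyy, Gcg, Lyz2, Nupr1, Zg16, Sox9, Pla2g2a, Alpi and the genes at background were named after their values were seen or for their role. The number of arrays limits precision. The limma p-values set each difference between the groups against the spread between these mice, moderated over all tested probes. The smallest two-sided p of an exact permutation test is 0.1 in this design. Scripts were tested on simulated data. Alternatives covered array weights, scaling, an offset of 50, the replicate number as a block, other filters on detection, the eBayes prior, the methods' t-test, the probe chosen per gene and leaving out each mouse. A beadchip block was not run because no beadchip is named.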

Additional observations from a re-analysis of the deposited data

How the results depend on the processing

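The direction of the median over the 8 genes held in every alternative run. With each mouse left out in turn, it ranged from 0.37 to 1.03, highest without EGFP mouse 3, the count of probes called by limma ranged from 0 to 28, all 28 without EGFP mouse 3, the median r between genes from -0.073 to 0.92, and the median of the 35 other Paneth cell genes from 0.052 to 0.35. In the authors' unscaled log2 values that last median was -0.042, where the median of all genes was -0.27. Fits with another scaling, offset, filter, prior or array weights called 0 probes, as the methods' t-test did after adjustment, with 1061 probes at an unadjusted p under 0.05 against 954 by limma. With the replicate number as a block, limma called 0 probes and the median over the 8 genes was again 0.60, with 1035 probes at an unadjusted p under 0.05. Same-numbered mice had correlations of 0.30, -0.09 and 0.16 between their deviations, so the numbers were not taken as pairing. Of 196 values of the 14 probes under the alternatives, 8 moved by at least 1 SD and 6 changed sign, these 6 on probes above 20000 with differences of at most 0.10. The dimmest probe per gene and the limit of 20000 were added after the values were seen. With 2 control mice left, the fit without EGFP mouse 3 rests on limma's pooled spread.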
